A study of Mus musculus with 72 samples.

Results

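Levels of poly(A) RNA in the membrane fraction of E14TG2a mouse embryonic stem cells (mESCs) were compared between long and short exposure to 4-thiouridine (4sU). The comparison took the read-count files of the membrane fraction, replicates 3 and 4, at 120 min and at 20 min of labeling, which are 4 of the 72 libraries of the series and 4 of its 18 membrane libraries. Each side holds 2 libraries. Of 51826 genes in the count files, 16202 passed a filter on low counts and were tested.

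The study labeled newly made RNA with 4sU, separated nuclear, cytosolic and membrane-bound RNA by detergent extraction, and read the label after alkylation as T-to-C mutations. All cultures grew with leukemia inhibitory factor, serum, the GSK3 inhibitor CHIR99021 and the MEK inhibitor PD0325901, and all libraries used here were labeled. Replicates were passaged and labeled separately, so that a replicate number does not by itself tie a 20 min to a 120 min culture, whereas the fractions of one replicate and time come from one culture. The labels give a dose of 500 µM for 20 and 40 min and 100 µM for 60 and 120 min, whereas the study's methods describe long labeling at either dose without saying which replicates had which. The labels put replicates 3 to 6 at 100 µM at 120 min, more replicates than the methods name for that dose. If the labels hold, time and dose cannot be told apart, and the conversion rates given below bear on which dose was used.

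4sU is taken up by cells and built into RNA in place of uridine, and at high dose or after long exposure it is known to disturb ribosome production and to stabilize p53, the transcription factor that induces cell-cycle brakes after DNA or nucleolar damage. The membrane fraction holds mRNAs translated on the endoplasmic reticulum (ER), which encode secreted and membrane proteins, and the transcripts made inside mitochondria. The integrated stress response, which acts through the factor ATF4, induces genes of amino acid supply and is the other arm of stress signaling treated here.

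The conversion rate, which is the share of T positions read as C in newly made RNA, was 9.58% and 11.7% at 120 min in replicates 3 and 4 and 2.81% and 3.1% at 20 min. In replicates 5 and 6 it was 3.31% and 3.65% at 120 min, below both 120 min libraries of replicates 3 and 4. The 4 libraries held from 24302364 to 37447227 reads assigned to genes. All 10 embryonic stem cell markers were above 1 CPM (counts scaled to library size), with a summed level of 7430 to 8420 CPM at 20 min and 7290 to 8360 CPM at 120 min. Of the marker lists of other cells, primitive endoderm summed to 5.08 to 9.3 CPM at 20 min and 5.76 to 8.25 CPM at 120 min, ectoderm and epiblast to 85.4 to 94.4 and 87.2 to 87.4 CPM, mesoderm to 6.7 to 6.92 and 4.87 to 6.74 CPM, trophectoderm to 89.9 to 94.5 and 90.1 to 91.3 CPM, 2-cell-like cells to 2.77 to 4.69 and 2.87 to 4.78 CPM, and fibroblasts to 7.22 to 8.57 and 7.97 to 8.32 CPM. The range at 120 min overlapped the range at 20 min in every one of these lists.

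Mitochondrially encoded RNA made up 11.7% and 8.96% of counts at 120 min against 9.39% and 9.44% at 20 min, a difference of 0.917 percentage points (exact permutation test, two-sided, p = 1.0, where the smallest p that 2 against 2 libraries allow is 0.333). The membrane library of replicate 4 at 40 min stood apart, with a mitochondrial share of 4.82%, the lowest of the 18 membrane libraries. It is not part of the comparison but enters the estimate of spread, and the number of calls without it is given below.

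Few membrane-bound RNAs were called, and the number depended on the fit, as given below, with 46 calls where the replicate number was a block. With edgeR's quasi-likelihood test over all 18 membrane libraries, 12 of 16202 genes (0.0741%) were called, meaning a Benjamini-Hochberg adjusted p below 0.05 together with a log2 fold change beyond 0.5 in either direction. There were 9 genes called higher (0.0555%) and 3 called lower (0.0185%) at 120 min. The genes that rose were Plk2 and Btg2, both known targets of p53, and 7 short genes that copy other transcripts, 6 of them annotated pseudogenes. The genes that fell, Slc38a2, Lemd3 and Tmem104, all encode membrane proteins. At an unadjusted p under 0.05 there were 1127 genes (6.96%), with 544 higher (3.36%) and 583 lower (3.6%). The median log2 fold change over all genes tested was -0.01, and 90% of genes lay between -0.72 and 0.87.

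**Figure D1:**
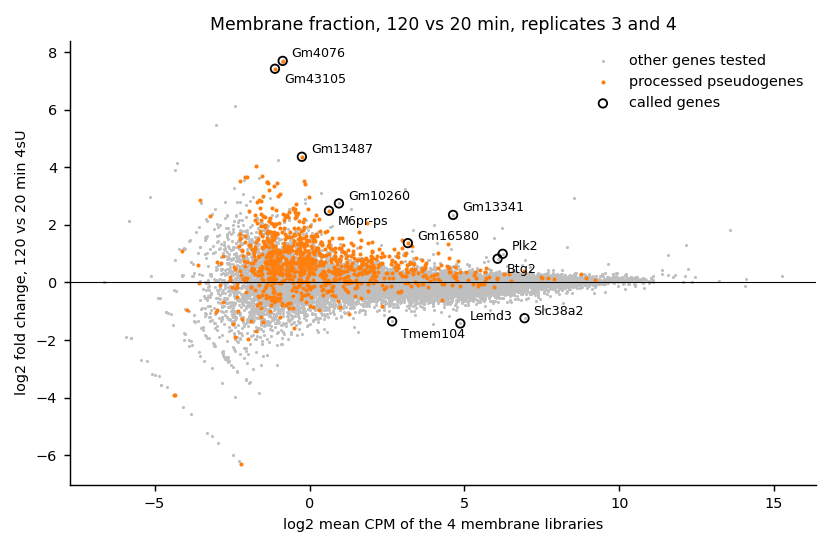
Log2 fold change of every tested gene between 120 and 20 min 4sU (vertical axis) against the log2 mean CPM of the 4 membrane libraries (horizontal axis), with processed pseudogenes in orange, other genes in gray and the 12 called genes circled. Slc38a2, Lemd3 and Tmem104 lie below 0, and the processed pseudogenes lie mostly above 0, with 774 of 935 higher.

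Plk2 (ENSMUSG00000021701.7, GRCm38 chr13:110395046-110400844) encodes polo-like kinase 2, a regulator of the centrosome cycle. Its level was 102 and 99.1 CPM in replicates 3 and 4 at 120 min and 53.6 and 47.1 CPM at 20 min. Both 120 min libraries were above both 20 min libraries, with a log2 fold change of 0.99 ± 0.17 (SE) and an adjusted p of 0.0381 (edgeR). Over all genes tested, 14.2% had both 120 min values above both 20 min values and 14.8% had both below, so that lack of overlap alone is common.

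Btg2 (ENSMUSG00000020423.6, GRCm38 chr1:134075170-134079120) encodes an antiproliferative protein that binds the CCR4-NOT deadenylase. It was at 84.6 and 87.2 CPM at 120 min and at 51 and 46.2 CPM at 20 min. The groups did not overlap, and the log2 fold change was 0.82 ± 0.15 (SE; edgeR adjusted p = 0.0425). Per kb of exon, Btg2 stood at 30.8 and 31.8 CPM at 120 min and Plk2 at 22.6 and 22.1 CPM, so that Btg2 was the more abundant transcript of the pair.

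Cdkn1a (GRCm38 chr17:29090976-29100727), which encodes the cell-cycle inhibitor p21, was at 59.6 and 77.5 CPM at 120 min and at 39.4 and 41.9 CPM at 20 min. Its log2 fold change was 0.76 ± 0.18 (SE) and it missed the call with an adjusted p of 0.179 (edgeR). Cdkn1a was called in the fit over 54 libraries of 3 fractions, where its adjusted p in the membrane fraction was 0.0239 (edgeR). That fit was an alternative chosen after seeing the data and gave 76 calls.

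Plk2 and Btg2 were called in 9 of 14 alternative fits each. Both lost the call with protein-coding genes alone (edgeR adjusted p = 0.0699 and 0.051), without replicate 3 (0.135 and 0.132) or replicate 4 (0.274 and 0.296), and on the 4 or 8 libraries of these replicates, with log2 fold changes of 0.91 to 1.07 and 0.72 to 0.92 throughout.

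Of 27 p53 targets listed, 27 were tested, 2 were called higher and 0 lower. At an unadjusted p under 0.05 there were 5 higher members and 0 lower members, where 3.36% and 3.6% of all genes passed in each direction. Besides Plk2, Btg2 and Cdkn1a these were Bbc3, which encodes the pro-apoptotic protein PUMA, and Mdm2, which encodes the ubiquitin ligase that degrades p53. Both were chosen after their values were seen. Mdm2 was at 251 and 224 CPM at 120 min and at 191 and 160 CPM at 20 min, with a log2 fold change of 0.43. The median log2 fold change of the 27 members was 0.10, beside -0.01 over all genes tested, and 18 of the 27 were above 0.

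Slc38a2 (ENSMUSG00000022462.6, GRCm38 chr15:96687392-96699730) encodes SNAT2, a sodium-coupled transporter of neutral amino acids at the cell surface. It fell from 155 and 190.5 CPM at 20 min to 76.8 and 69.3 CPM at 120 min. The log2 fold change was -1.24 ± 0.18 (SE; edgeR adjusted p = 0.0106), and the groups did not overlap. The Slc38a2 counts were 5903 and 5772 at 20 min and 1798 and 2217 at 120 min, so that counting error was small beside the change.

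Lemd3 (ENSMUSG00000048661.14, GRCm38 chr10:120923413-120979332) encodes MAN1, a protein of the inner nuclear membrane that binds SMAD proteins. It was at 41.5 and 43.6 CPM at 20 min and at 18 and 13.8 CPM at 120 min. Lemd3 fell by 1.43 on the log2 scale (SE 0.22, edgeR adjusted p = 0.0244).

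Tmem104 (ENSMUSG00000045980.13, GRCm38 chr11:115187487-115247023) encodes a transmembrane protein. Its level was low, at 8.26 and 9.97 CPM at 20 min and 3.63 and 3.5 CPM at 120 min. The libraries at 120 min were both below those at 20 min, and Tmem104 fell by 1.35 on the log2 scale (SE 0.22, edgeR adjusted p = 0.0244).

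The counts of T-to-C mutations gave a second readout of these genes. The authors' share of new to total RNA at 60 min in replicates 5 and 6, which are libraries outside the comparison, was 0.68 and 0.621 for Plk2, 0.613 and 0.518 for Btg2, and 0.898 and 0.807 for Cdkn1a. It was 0.39 and 0.334 for Slc38a2, 0.309 and 0.343 for Lemd3, and 0.443 and 0.333 for Tmem104. The median over 13694 tested genes with at least 400 T counts was 0.151, so that the share of new RNA of these 6 mRNAs was above the median in both libraries. The share is a ratio to an estimated rate and can exceed 1.

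At 120 min in replicates 3 and 4, 0.952 and 0.907 of Plk2 RNA and 0.866 and 0.849 of Btg2 RNA were new. For the genes that fell, the new share at that time was 0.731 and 0.672 for Slc38a2, 0.626 and 0.611 for Lemd3, and 0.588 and 0.617 for Tmem104. In replicates 5 and 6 at 120 min the corresponding shares were higher, at 0.823 and 0.765 for Slc38a2, 0.899 and 0.832 for Lemd3, and 1.01 and 0.791 for Tmem104. The same held for the p53 targets, with 1.11 and 0.957 for Plk2, 0.92 and 0.873 for Btg2 and 1.2 and 1.13 for Cdkn1a in replicates 5 and 6, beside 0.993 and 0.98 for Cdkn1a in replicates 3 and 4. All 6 genes thus had a lower share in replicates 3 and 4 than in replicates 5 and 6, and the difference was not tested. It was not particular to them. Nanog was at 0.451 and 0.399 against 0.619 and 0.525, and Clk1 at 0.691 and 0.609 against 0.882 and 0.803. Other genes went the other way, such as mt-Nd5 (0.546 and 0.552 against 0.506 and 0.483) and Snhg8 (0.399 and 0.334 against 0.266 and 0.246).

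**Figure D2:**
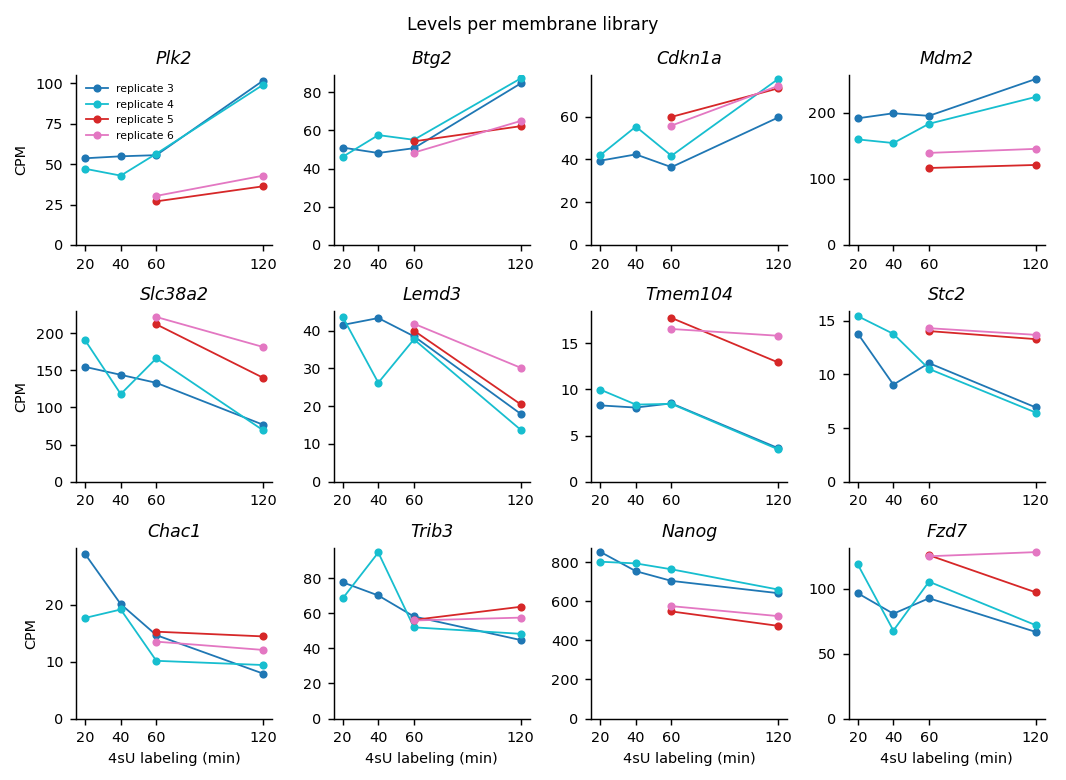
CPM (vertical axis) in each membrane library against minutes of 4sU labeling (horizontal axis) for 12 genes, with replicates 3 and 4 at 20 to 120 min in blue tones and replicates 5 and 6 at 60 and 120 min in red tones. Plk2 stayed at 42.9 to 56.5 CPM up to 60 min in replicates 3 and 4 and reached 102 and 99.1 CPM at 120 min, and Slc38a2 ended at 76.8 and 69.3 CPM.

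No member of the integrated stress response list was called over the 18 membrane libraries, and the members with the smallest p-values were all lower at 120 min. The list did not include Slc38a2, the amino acid transporter gene called lower above. Stc2, which encodes a secreted glycoprotein, was at 13.8 and 15.4 CPM at 20 min and at 6.92 and 6.44 CPM at 120 min (log2 fold change -1.13 ± 0.21 SE, edgeR adjusted p = 0.0534). Chac1, which encodes an enzyme that breaks down glutathione, was at 28.9 and 17.7 CPM at 20 min and at 7.9 and 9.41 CPM at 120 min (log2 fold change -1.43 ± 0.27 SE, edgeR adjusted p = 0.0616). In the fit over 54 libraries, an alternative chosen after seeing the data, both were called lower in the membrane fraction. The adjusted p was 0.0204 for Stc2 and 0.0095 for Chac1 (edgeR). For both genes the groups did not overlap, and across the transcriptome 14.8% of genes had both 120 min values below both 20 min values.

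Among the other members, Trib3, a pseudokinase that binds ATF4, and Slc7a11, the cystine and glutamate exchanger, were named after their values were seen. Trib3 was at 77.6 and 68.5 CPM at 20 min and at 44.7 and 48.3 CPM at 120 min. Of 25 listed genes 25 were tested and 0 were called in either direction. At an unadjusted p under 0.05 there were 4 lower and 0 higher, where 3.6% and 3.36% of all genes passed. The median log2 fold change of the list was -0.13, and 9 of 25 members were above 0.

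The promoter of Chac1 is shown because it holds TGATGNAA, the core of the element that ATF4 binds together with C/EBP proteins, which was searched on both strands of the RefSeq promoters (250 bases before to 50 after the start, GRCm38.p6). The match lies on the reverse strand and is in capitals in the sequence of chr2:119350992-119351291 (plus strand):
Chac1: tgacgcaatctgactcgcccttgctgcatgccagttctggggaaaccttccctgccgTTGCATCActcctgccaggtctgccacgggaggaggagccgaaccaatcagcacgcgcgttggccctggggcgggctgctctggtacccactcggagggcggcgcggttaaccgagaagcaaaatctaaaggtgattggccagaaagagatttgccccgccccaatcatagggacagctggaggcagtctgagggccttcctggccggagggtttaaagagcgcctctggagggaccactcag
The motif was in 3.97% of all 32851 promoters and in at least one promoter of 2.74% of the 11269 tested genes with a promoter entry. Of 22 genes of the integrated stress response list with an entry, 7 held it (31.8%). Beside Chac1, Trib3 and Slc7a11 these were Asns (log2 fold change 0.12), Nupr1 (0.19), Vldlr (-0.26) and Pck2 (-0.15), so that holders lay on both sides of 0. Stc2 and Slc38a2 held no match in these windows, and sequence outside them was not searched. A half-site of the p53 binding sequence was searched in the same windows. Plk2, Btg2 and Bbc3 held none, whereas Cdkn1a and Mdm2 did, beside 8.31% of the tested genes with an entry.

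Signaling genes had medians below 0 as well. Of 34 feedback genes of the LIF, FGF, BMP, Nodal and Wnt pathways, 0 were called and the median log2 fold change was -0.20. At an unadjusted p under 0.05, 5 were lower and 0 higher. For this and the following lists, 3.6% of all genes tested were lower and 3.36% higher at that limit. Protein-coding genes in the highest quartile group of the share of new RNA, grouped below, had a median of -0.19, with 8.94% lower. The part of new share or localization in the list values was not tested. Lefty1, a Nodal antagonist, was at 2.86 and 3.83 CPM at 20 min and 1.92 and 2 CPM at 120 min, with a log2 fold change of -0.76 (edgeR adjusted p = 0.446). Spry4, a feedback inhibitor of receptor tyrosine kinase signaling, was at 37.2 and 39.8 CPM at 20 min and 25.2 and 26.3 CPM at 120 min, with a log2 fold change of -0.58 (edgeR adjusted p = 0.483). In the membrane libraries of replicates 1, 2, 5 and 6, Lefty1 was far higher, at 57.6 to 135 CPM, and Spry4 lower, at 4.55 to 18.8 CPM.

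Among 35 receptors and adhesion molecules, 0 were called, 4 were lower and 0 higher at an unadjusted p under 0.05, and 8 were above 0 (median -0.16). The membrane-localized genes grouped below had a median of -0.09, with 7.58% lower at that limit. Fzd7, a Wnt receptor, was at 96.7 and 119 CPM at 20 min and at 66.8 and 72 CPM at 120 min, with a log2 fold change of -0.63 (edgeR adjusted p = 0.204). Il6st, the signaling subunit shared by LIF-type receptors, was at 139 and 166 CPM at 20 min and at 114 and 91.7 CPM at 120 min, with a log2 fold change of -0.57 (edgeR adjusted p = 0.341).

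No pluripotency transcription factor was called. Nanog was at 852 and 802 CPM at 20 min and at 641 and 660 CPM at 120 min, without overlap, and its log2 fold change of -0.35 ± 0.13 (SE) had an adjusted p of 0.524 (edgeR). Prdm14, a repressor of differentiation genes in mESCs, had a log2 fold change of -0.36 (edgeR adjusted p = 0.706). Of the 23 factors tested, 8 were above 0, 2 were lower and 0 higher at an unadjusted p under 0.05, and the median was -0.22.

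Of 24 immediate early genes tested, 0 were called, with 1 higher and 4 lower at an unadjusted p under 0.05 and a median of -0.08. Ccn2, a secreted matricellular protein and YAP target, went from 21.3 and 21.6 CPM to 11.1 and 10.9 CPM (log2 fold change -0.97, edgeR adjusted p = 0.272), whereas Fosl1, an AP-1 subunit, was at 0.288 and 0.561 CPM at 20 min and 0.555 and 1.56 CPM at 120 min (log2 fold change 1.35, edgeR adjusted p = 0.515).

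Other stress programs had small medians and no called member. The 20 heat shock genes had a median log2 fold change of 0.12 and the 19 oxidative stress genes of 0.10, with 0 members of either list at an unadjusted p under 0.05. Hsp90ab1, a cytosolic chaperone, was at 0.19 and Cryab, a small heat shock protein, at 0.32, and of the NRF2 program Nqo1 was at 0.25 and Nfe2l2 itself at -0.25 (log2 fold changes, edgeR adjusted p of 0.802 or more). The 24 ER chaperones and unfolded protein response genes had a median of 0.01, with 2 lower at an unadjusted p under 0.05. These were Herpud1 at -0.66 and Syvn1 at -0.47, both components of ER-associated degradation (edgeR adjusted p = 0.322 and 0.585).

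Lists tied to the ER itself did not move as groups. The 30 genes of the ER translocon and signal recognition had a median of -0.01 and 0 members at an unadjusted p under 0.05, with Srprb at -0.32 and Stt3b at -0.15. Cholesterol genes had a median of -0.04 (Insig2 at -0.48, Fdps at 0.71), and matrix genes a median of 0.00 (P4ha1 at -0.51, Lama1 at -0.33), with 1 of 24 and 2 of 20 members lower at an unadjusted p under 0.05.

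Ribosomal protein mRNAs moved both ways with labeling time. Of 75 cytosolic ribosomal protein mRNAs 62 were above 0, with a median of 0.09 that lay inside the swing of the same list at shorter labeling (0.41 at 40 and -0.24 at 60 against 20 min), and 1 passed an unadjusted p under 0.05 (Rps27 at 0.65, edgeR adjusted p = 0.589), while Rpl4 was at 0.29. Ribosome biogenesis genes had a median of 0.07, with 28 of 40 above 0 (Npm1 at 0.24, Rrp1 at 0.28). The Clk kinases and SR splicing factors had a median of 0.04 (Clk1 at -0.36, Srsf9 at 0.30) and 13 snoRNA host RNAs a median of 0.00 (Snhg8 at 0.43, Snhg20 at 0.35).

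Nuclear-retained RNAs, which can show carryover of nuclei, had a median of 0.00 over 9 tested, and 0 passed an unadjusted p under 0.05. In the nuclear fraction of the same cultures the list had a median of -0.55, with Kantr at -2.02 and Neat1 at -1.70. A flat median in the membrane fraction therefore does not show that carryover stayed constant. Kantr was at 3.76 and 2.41 CPM at 120 min and at 4.51 and 4.79 CPM at 20 min (log2 fold change -0.60, edgeR adjusted p = 0.854), and Neat1 had a log2 fold change of -0.61 (edgeR adjusted p = 0.851). Gm42418 and mt-Rnr2, which carry ribosomal RNA sequence, were chosen after their values were seen. The long noncoding gene Gm42418 was at 27720 and 10420 CPM at 120 min and at 7031 and 3883 CPM at 20 min, and the mitochondrial 16S rRNA mt-Rnr2 at 9314 and 3770 CPM and at 2880 and 2370 CPM. Neither was called (edgeR adjusted p = 0.285 for Gm42418 and 0.341 for mt-Rnr2), and their part in the other results was not tested.

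**Figure D3:**
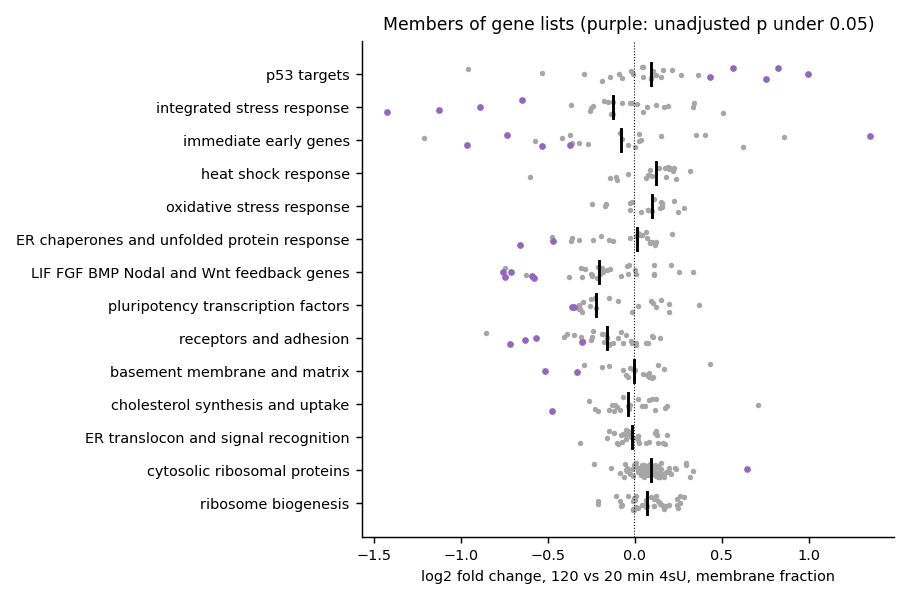
Log2 fold change between 120 and 20 min 4sU (horizontal axis) of the tested members of 14 gene lists (rows), with members at an unadjusted p under 0.05 in purple, list medians as black bars and the median of all genes, -0.01, as a dotted line. All 5 purple p53 targets lie right of 0 and all 4 purple members of the integrated stress response lie left of it.

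The mRNAs were then grouped by localization and turnover, both taken from libraries outside the comparison. Localization was the ratio of membrane to cytosolic CPM in replicates 1, 2, 5 and 6, with mRNAs at a ratio of at least 3 called membrane-localized and those at a ratio of at most 1.5 cytosol-localized. The 1873 membrane-localized genes had a median log2 fold change of -0.09 and the 8793 cytosol-localized genes of 0.01. Of the membrane-localized genes 7.58% were lower and 0.85% higher at an unadjusted p under 0.05, beside 2.29% and 2.46% of the cytosol-localized genes. In the membrane-localized class replicate 3 alone gave a median of -0.01 and replicate 4 alone a median of -0.18, beside -0.02 and 0.00 over all genes tested, so that the shift was seen in replicate 4 and hardly in replicate 3.

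All 3 genes that fell were membrane-localized, and the called coding genes Plk2 and Btg2 were cytosol-localized. These genes also differed between replicate pairs at the same 20 min. Replicates 1 and 2 held more Slc38a2 (566 and 622 CPM), Lemd3 (66.8 and 70.2 CPM) and Tmem104 (24.8 and 29.2 CPM) than replicates 3 and 4. They held less Plk2 (31.9 and 29.6 CPM) and Btg2 (38.1 and 33.5 CPM). The part of fraction yield or batch in the changes was not tested. Turnover was taken as the share of new RNA at 60 min in replicates 5 and 6. The quartile group of genes with the lowest share (up to 0.0777) had a median log2 fold change of 0.08, the following quartile groups of 0.03 and -0.06, and the quartile group with the highest share (from 0.287) of -0.18. In the highest quartile group 8.73% of genes were lower and 2.89% higher at an unadjusted p under 0.05, against 0.76% and 2.86% in the lowest quartile group. Shorter labeling gave other medians. At 40 against 20 min the medians ran from 0.18 over 0.04 and -0.04 to -0.14, a wider span, and at 60 against 20 min they were -0.09, -0.03, 0.01 and 0.00, in the opposite order up to the third group. These comparisons share the 20 min libraries. At 120 min both replicates gave the same order for the outer quartile groups, with medians of 0.02 and 0.16 in the lowest quartile group and -0.11 and -0.26 in the highest quartile group for replicates 3 and 4.

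Among protein-coding genes, the medians at 120 against 20 min followed the new share within either class. Membrane-localized genes had medians of 0.00, -0.10, -0.20 and -0.27 from the lowest to the highest quartile group of new share (573, 592, 427 and 243 genes), and cytosol-localized genes of 0.09, 0.05, -0.04 and -0.17 (1846, 1962, 1993 and 2026 genes). At 60 against 20 min the membrane-localized medians had no order (-0.04, -0.01, 0.02 and -0.05) and the cytosol-localized medians went from -0.12 to 0.00, and at 40 against 20 min they went from 0.05 to -0.15 and from 0.22 to -0.14. Of the 243 membrane-localized genes with the highest new share 21.0% were lower at an unadjusted p under 0.05. In the cytosolic fraction of the same cultures that group had a median of -0.28 and in the nuclear fraction of -0.16. Gene length moved with the result too, from a median of 0.06 in the shortest quartile group of protein-coding genes to -0.08 in the longest. That span was wider at 40 against 20 min (0.22 to -0.17) and reversed at 60 against 20 min (-0.12 to 0.05), and the part of length in the result was not tested.

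**Figure D4:**
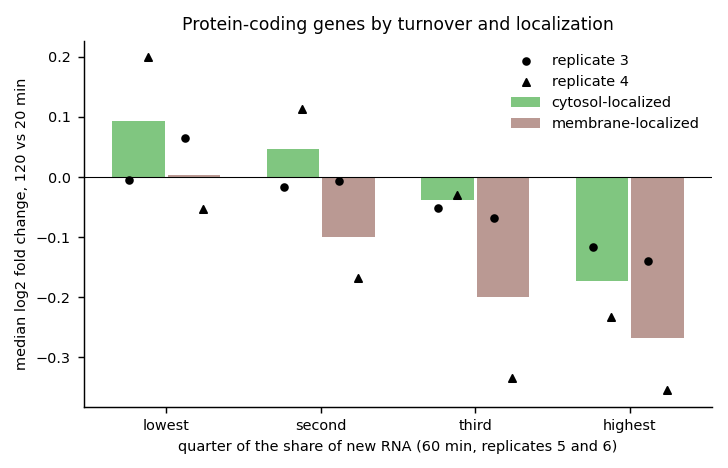
Median log2 fold change between 120 and 20 min 4sU (vertical axis) of protein-coding genes by quartile group of the share of new RNA at 60 min in replicates 5 and 6 (horizontal axis), for cytosol-localized (green) and membrane-localized genes (brown). Bars are medians of the fitted values and the points are medians in replicate 3 (circles) and replicate 4 (triangles) alone. The bars fall from 0.09 to -0.17 and from 0.00 to -0.27.

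Gene copies stood apart from coding genes. Processed pseudogenes are copies of spliced mRNAs inserted elsewhere in the genome, and reads that fit a copy and its coding source equally well have no unique place. Of the 7 copies called, 5 are annotated as processed pseudogenes. Of 935 processed pseudogenes tested 774 (82.8%) were above 0, with a median log2 fold change of 0.58 beside -0.02 for 13746 protein-coding genes. Replicates 3 and 4 alone gave medians of 0.49 and 0.59. A copy could pass the low-count filter through 2 libraries where it was high, which can raise the median and the share above 0. How many of the 935 did so was not counted. The level of the group was small, at 0.741% and 0.768% of nuclear-encoded counts at 120 min and at 0.666% and 0.606% at 20 min. The difference of 0.118 percentage points had p = 0.333 (exact permutation test, two-sided), the smallest p that 2 against 2 libraries allow. The 40 min library of replicate 4 was higher, at 0.806%.

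Matched by blastn to annotated coding transcripts, 875 of the 935 had a coding match of at least 200 bases and 80% identity. The matched copies had a median of 0.60 and the 60 without a match a median of 0.11. For 3 of the called copies a stretch of 30 bases is shown beside the coding transcript, chosen to hold T-to-C differences from coding transcript to copy, the kind of change that 4sU labeling also produces in reads. They are not typical of the whole copies. Of all substitutions in the aligned part, 4 of 16 were T-to-C and 4 C-to-T in Gm13341, 1 of 5 and 0 in Gm10260, and 4 of 18 and 2 in Gm43105. Sequences are 5′ to 3′ on the transcript strand of GENCODE M21, the capitals mark differing bases, and positions count from 1 at the start of the transcript.
mt-Co2, positions 231 to 260: TctcccctctctacgcattctataTataat
Gm13341, positions 231 to 260: CctcccctctctacgcattctataCataat
Rps18, positions 243 to 272: Tgaggtggagcgagtgatcaccatcatgca
Gm10260, positions 230 to 259: Cgaggtggagcgagtgatcaccatcatgca
Ormdl2, positions 219 to 248: TggtaggactgctgcaTgtggttctcctca
Gm43105, positions 86 to 115: CggtaggactgctgcaCgtggttctcctca

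The differences in these stretches are T231C and T255C for mt-Co2 and Gm13341, T243C for Rps18 and Gm10260, and T219C and T235C for Ormdl2 and Gm43105, given as coding base, coding position and base of the copy. Counts of such near-identical copies depend on how the aligner split reads between copy and source and are uncertain as levels of the copies.

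Gm13341 (ENSMUSG00000083863.1, GRCm38 chr2:22587291-22587962), a nuclear copy of the mitochondrial cytochrome oxidase gene mt-Co2 at 95.9% identity, was at 44.8 and 38.2 CPM at 120 min and at 7.26 and 9.08 CPM at 20 min. Its log2 fold change was 2.34 ± 0.21 (SE; edgeR adjusted p = 4.18e-05), the smallest adjusted p of the comparison. It stood at 13.9 and 13 CPM at 40 min and 22.3 and 19.1 CPM at 60 min in the same replicates, so that its level was higher at each longer labeling time, as the conversion rate was. In replicates 5 and 6, where the conversion rate was lower, it was at 8.24 and 10.4 CPM at 60 min and 12.8 and 10.4 CPM at 120 min. The counts of mt-Co2 itself were near 0 in all 4 libraries, at 0.0427 to 1.31 CPM.

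Gm10260, a single-exon copy of the ribosomal protein gene Rps18 at 99.1% identity that the annotation lists as protein-coding, was at 2.82 and 3.88 CPM at 120 min and 0.498 and 0.495 CPM at 20 min (log2 fold change 2.74 ± 0.40 SE, edgeR adjusted p = 0.0106). Rps18 was at 1843 and 1339 CPM at 120 min and 1760 and 1173 CPM at 20 min, with a log2 fold change of 0.12. Gm16580, a copy of part of the poly(A)-binding protein gene Pabpc1, was at 14.5 and 11.5 CPM against 4.54 and 5.54 CPM (log2 fold change 1.37, edgeR adjusted p = 0.0366).

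M6pr-ps, a copy of the mannose-6-phosphate receptor gene, was at 2.48 and 2.75 CPM against 0.55 and 0.363 CPM (log2 fold change 2.49, edgeR adjusted p = 0.0425), while M6pr had a log2 fold change of -0.06. Gm13487, a copy of Taf1d, had 47 and 38 reads at 120 min and 4 and 1 reads at 20 min, with a log2 fold change of 4.36 (edgeR adjusted p = 0.034), while Taf1d had a log2 fold change of 0.78. Gm4076, a copy of mt-Nd5, and Gm43105, a copy of Ormdl2, had 0 reads in both 20 min libraries and 62 and 49 reads at 120 min summed over both libraries. Against a floor of 3 counts over the 20 min group, Gm4076 was at least 25.5-fold and Gm43105 at least 20.2-fold higher. Gm43105 was at 1.02 and 0.781 CPM at 120 min in replicates 3 and 4 and at most 0.375 CPM in any other membrane library. Outside these 120 min libraries Gm4076 and Gm13487 reached at most 0.52 and 0.739 CPM, each in a single library. Gm43105, Gm4076 and Gm13487 thus passed the low-count filter through the libraries where they were high. Their calls and folds are not independent of that filter.

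By the number of T-to-C differences from coding transcript to copy, the 308 copies with 0 such positions had a median log2 fold change of 0.51, the 174 with 1 of 0.66, the 211 with 2 to 3 of 0.73 and the 182 with 4 or more of 0.69. By the number of C-to-T differences, the medians were 0.45, 0.62, 0.65 and 0.73 in the same classes. The conversion rate moved with the comparison as given above, and its part in these values was not tested. Between 29.4% and 34.9% of reads in the membrane libraries were not aligned to a unique place.

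**Figure D5:**
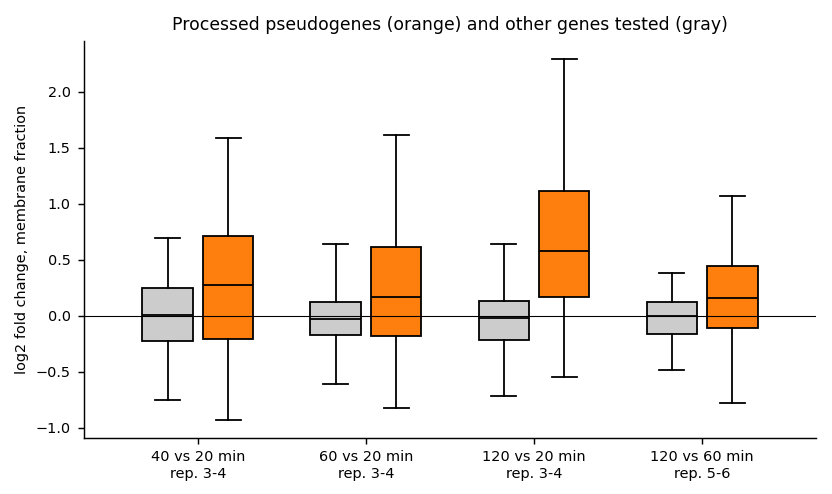
Log2 fold change in the membrane fraction (vertical axis) of 935 processed pseudogenes (orange) and the other genes tested (gray) in 4 comparisons (horizontal axis), as boxes from the 25th to the 75th percentile with the median and whiskers at the 5th and 95th percentiles. The orange median is 0.27, 0.17, 0.58 and 0.16 from left to right.

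Shorter labeling gave no call. Of 16202 genes, 0 (0.0%) were called at 60 against 20 min and 0 (0.0%) at 40 against 20 min in replicates 3 and 4, with 474 (2.93%) and 1190 (7.34%) at an unadjusted p under 0.05 by edgeR. DESeq2 called 1 and 0 genes. These comparisons share the 20 min libraries with the main one, so that values are only set side by side. The log2 fold changes at 40, 60 and 120 min were -0.04, 0.15 and 0.99 for Plk2, 0.12, 0.12 and 0.82 for Btg2, 0.26, -0.06 and 0.76 for Cdkn1a, and -0.40, -0.20 and -1.24 for Slc38a2. For Lemd3 they were -0.29, -0.16 and -1.43 and for Tmem104 -0.15, -0.11 and -1.35. The 6 genes were thus past 0.5 on this scale at 120 min and not before. Chac1 had reached -0.91 at 60 min, after -0.25 at 40 min.

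Replicates 5 and 6, which share no library with the comparison, were measured at 60 and 120 min with a low conversion rate. There 0 of 16202 genes (0.0%) were called at 120 against 60 min by edgeR and 0 by DESeq2, with 65 (0.401%) at an unadjusted p under 0.05. The log2 fold change was 0.47 for Plk2, 0.31 for Btg2, 0.35 for Cdkn1a, -0.43 for Slc38a2, -0.69 for Lemd3 and -0.26 for Tmem104, each of the same sign as at 120 against 20 min. Both 120 min libraries were above both 60 min libraries for Plk2 (36.3 and 42.9 against 27 and 30.4 CPM), and both were below for Slc38a2 (140 and 182 against 212 and 222 CPM) and Lemd3 (20.5 and 30.2 against 40 and 41.8 CPM). The share of all genes with such a gap in replicates 5 and 6 was not counted. Stc2 and Chac1 were at -0.07 and -0.12.

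The change in the membrane fraction was last set against that in the cytosol and nucleus of the same cultures. In one edgeR fit of 54 libraries and 18706 genes, the membrane fraction had 76 calls (0.406%), the cytosol 130 (0.695%) and the nucleus 762 (4.07%) at 120 against 20 min. In the nucleus 375 of the calls were higher (2.0%) and 387 lower (2.07%), and in the cytosol 74 were higher (0.396%) and 56 lower (0.299%). The test of the difference itself called 0 genes (0.0%) for membrane minus cytosol and 0 (0.0%) for membrane minus nucleus, with 758 (4.05%) and 1257 (6.72%) at an unadjusted p under 0.05. With a term for each culture the calls were 0 and 11, the latter all higher in membrane than nucleus and led by Usp11, a deubiquitinase named after its values were seen, at a log2 difference of 1.06 (edgeR adjusted p = 0.0269).

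Plk2 had log2 fold changes of 0.98 in membrane, 1.19 in cytosol and 1.48 in nucleus, and Btg2 of 0.81, 0.94 and 0.98. Slc38a2 stood at -1.25, -0.61 and -0.99, with a difference of membrane minus cytosol of -0.64 ± 0.23 (SE; edgeR adjusted p = 1.0). Lemd3 stood at -1.44, -0.71 and -1.03. Tmem104 was at -1.36 in membrane and 0.31 in cytosol, and that difference of -1.68 ± 0.64 (SE) did not pass either (edgeR adjusted p = 1.0). The cytosolic value of Tmem104 (SE 0.55) rests on levels near 0, at 0.0987 and 1.0 CPM at 120 min and 0.513 and 0.459 CPM at 20 min. Processed pseudogenes had medians of 0.42 in the cytosol and 0.84 in the nucleus. In these bulk libraries fewer cells of a type and less RNA per cell cannot be told apart, and all levels are relative to the other RNA of the fraction.

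The number of calls varied with the fit. All 12 genes were also called by DESeq2, which called 34 genes, without the 40 min library of replicate 4, which gave 27 calls, with the replicate number as a block (46 calls) and in the fit of 54 libraries (76 calls). Without replicate 3 there were 2 calls and without replicate 4 there were 7, and of the 12 genes 1 and 2 were among them. Fitted on the 4 libraries of the comparison alone, 1 gene was called, Gm13341. With protein-coding genes alone Slc38a2 and Tmem104 kept the call and Lemd3 lost it (edgeR adjusted p = 0.051). Gm13341 was called in 13 of 13 alternatives and each of the other 11 genes in 9 or 10 of 13 or 14. The cause of these moves was not tested.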

How the data were processed

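Poly(A)-selected RNA of the membrane fraction was sequenced by the authors, aligned with STAR 2.7.6 to GRCm38 (mm10) and counted per gene with HTSeq 0.11.1, per the submitters' processing notes and the paper. The deposited read counts are raw. The authors also deposited counts of T positions and T-to-C mutations per gene and a conversion rate per library as a fraction. The new share of a gene is a further deposited ratio, which equals mutations over T positions scaled by the conversion rate.

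Counts were tested with edgeR 4.0.16 in R 4.3.3 by the quasi-likelihood method, after filterByExpr and TMM scaling, and p-values were adjusted by Benjamini-Hochberg. All 18 membrane libraries were fitted by replicate pair and labeling time, so that the contrast borrows its spread from all of them. DESeq2 1.42.0 served as the other tool. On simulated counts with a log2 change of 1.5, edgeR recovered 134 of 198 changed genes with 12 false calls among 15948 genes. CPM were scaled with TMM factors. Copies were matched with blastn 2.17.0 to GENCODE M21 transcripts, and 51633 of 51826 genes matched the annotation. Between 3.09% and 10.5% of reads fell on no gene. Intervals are standard errors computed from the log2 fold change and its quasi-likelihood F statistic. They rest on the spread shared over all libraries of a fit, not on the 4 libraries of the comparison alone.

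Calls needed an adjusted p below 0.05 and a log2 fold change beyond 0.5 either way. Genes named were the 12 called genes, of each list up to 4 called members or else the 2 with the smallest unadjusted p, Cdkn1a and Kantr, with exceptions stated. Members and lists were chosen with earlier results of these data known.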

Additional observations from a re-analysis of the deposited data

How the results depend on the processing

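The count of 12 calls at 120 against 20 min moved to 34 with DESeq2, 116 without the low-count filter, 1 on the 4 libraries alone, 1 on the 8 libraries of replicates 3 and 4, and 2 to 7 when 1 replicate was left out. Alternatives chosen after seeing the data gave 3 (protein-coding genes only), 27 (without the 40 min library of replicate 4) and 76 (fit of 54 libraries). RLE, upper-quartile scaling, no mitochondrial genes and no fold limit gave 16, 15, 12 and 12. At 60 against 20 min the 0 calls became 1 with DESeq2, 21 without the filter, 1 without the 40 min library of replicate 4, and 0 to 2 with 1 replicate left out. At 40 against 20 min they became 38 without the filter and 2 to 1536 with 1 replicate left out, the 1536 without replicate 3. In replicates 5 and 6 they became 2 without the filter. Membrane minus cytosol gave 8 and membrane minus nucleus 21 calls without the filter, and the latter 0 to 15 with 1 replicate left out. The cause was not tested.

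With the replicate number as a block, 46 genes were called at 120 against 20 min, 4 at 60 and 0 at 40 against 20 min. With a block for each culture, membrane minus nucleus gave 11 calls. In the main fit the numbers were not taken as pairs: the labels tie no number to a shared culture and each time has 2 samples. The medians of replicate 3 alone and replicate 4 alone do compare samples by number. Deviations of same-numbered samples over 5193 genes correlated at 0.711 (20 and 60 min), 0.687 (20 and 120 min), 0.647 (60 and 120 min), 0.332 (40 and 120 min), 0.105 (40 and 60 min) and -0.029 (20 and 40 min). Same-numbered samples at 20, 60 and 120 min thus shared part of their variation, which the main fit leaves in its spread.

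The mitochondrial difference was -0.485 to 2.32 percentage points with 1 replicate left out. The median new share of genes called higher was 0.363 instead of 0.464 at a minimum of 1000 T counts. Of 809 values of 59 named genes under alternatives, 738 kept direction and call, 46 lost and 16 gained the call, and 9 changed sign. With 1 replicate left out the log2 fold change spanned 0 for Col1a1 (-0.11 to 0.90), Mixl1 (-0.95 to 0.05), Pdgfra (-1.58 to 0.55), Thy1 (-0.18 to 0.47), Zscan4c (-0.76 to 1.24), Snhg8 (-0.19 to 1.25), mt-Co2 (-4.78 to 0.09), mt-Nd5 (-0.05 to 1.08) and Gm8300 (-0.42 to 0.56). With 2 libraries a side, the lone sample of a leave-one-out fit is assumed to vary like the other groups.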
